A study of Mus musculus with 9 samples.

Results

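Mature circulating neutrophils carry a small set of transcripts that mark them in blood, and 9 of these were followed here in the blood RNA of mice with and without arthritis. The 9 genes were Cxcr2, Csf3r, Trem1, Ly6g, Mmp8, Mmp9, Retnlg, S100a8 and S100a9. They were chosen by name as genes of mature circulating neutrophils, with earlier results of these data known. All 9 were found among the 20926 genes of the expression table. All mice were male DBA/1 animals, 7 weeks old when divided into groups. Ctrl mice had no arthritis and were not irradiated. CIA mice had collagen-induced arthritis, a model of rheumatoid arthritis made by immunising with chick type II collagen in adjuvant, and were not irradiated. CIA+THz mice were immunised in the same way, and their swollen ankle was then irradiated at 0.1 THz for 30 min daily, on 14 days, under isoflurane anaesthesia. No irradiated group without arthritis was analysed here, and the labels do not say whether CIA and Ctrl mice were anaesthetised. Each group had 3 libraries. Nothing in the labels says that each library came from its own mouse, so the p-values below measure the spread between libraries, which may be technical.

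Neutrophils are made in the bone marrow under the cytokine G-CSF, whose receptor is Csf3r, and leave it in a late stage of maturity. Granule proteins are made in waves. Those of the secondary granules, such as Camp and Ltf, are transcribed in immature cells, while the gelatinase Mmp9 and the receptors of the mature cell come later. In blood the cells follow chemokines through Cxcr2, and in rheumatoid arthritis they are abundant in the joint fluid. S100a8 and S100a9 form calprotectin, the main cytosolic protein of the neutrophil and a serum marker of arthritis activity.

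The RNA is labelled as blood leukocyte RNA and was prepared, per the protocol, from total blood. Red cell transcripts were abundant in it. Alas2, the first enzyme of heme synthesis in developing red cells, held from 11.4% to 16.7% of all FPKM (fragments scaled by transcript length and library size), while the 9 neutrophil genes together took between 2.28% and 3.40%. The Alas2 share was lowest in CIA+THz, at 11.4% to 14.0%, against 14.4% to 16.6% in Ctrl and 16.3% to 16.7% in CIA. Levels below are FPKM divided by a library factor (median of ratios over 10312 genes), called rescaled FPKM. The factors lay between 0.847 and 1.24 and were highest in CIA+THz, where the read depth inferred from the lowest values was also highest, between 1.35 and 1.86 times that of Ctrl replicate 1. These FPKM give depth only in relative terms, so no counting interval is given. In bulk RNA, fewer neutrophils, less RNA per neutrophil and more RNA from other cells cannot be told apart.

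The sequences before the start sites of 4 of these genes are shown because the results below turn on them: Mmp8 for the largest difference of the 9 genes between CIA and Ctrl, Retnlg for that between CIA+THz and CIA, and S100a8 and S100a9 as the neighbouring genes of calprotectin. Each run is the 250 bases before the RefSeq start site, 5′ to 3′ on the gene's own strand, in GRCm38.p6. Capitals mark matches to a C/EBP motif (TTNNGNAA, or TTNCNNAA on the other strand) and to a PU.1 or ETS motif (AGGAAGT, or ACTTCCT on the other strand), named for families of factors known from granulocyte development. The windows lie at chr9:7558179-7558428, plus strand, for Mmp8, at chr16:48872358-48872607, plus strand, for Retnlg, at chr3:90668821-90669070, plus strand, for S100a8 and at chr3:90695722-90695971, minus strand, for S100a9.
Mmp8: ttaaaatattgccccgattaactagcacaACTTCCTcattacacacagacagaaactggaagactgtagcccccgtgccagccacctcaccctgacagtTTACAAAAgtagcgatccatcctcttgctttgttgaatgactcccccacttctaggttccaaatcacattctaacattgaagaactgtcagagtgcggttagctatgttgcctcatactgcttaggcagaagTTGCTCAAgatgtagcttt
Retnlg: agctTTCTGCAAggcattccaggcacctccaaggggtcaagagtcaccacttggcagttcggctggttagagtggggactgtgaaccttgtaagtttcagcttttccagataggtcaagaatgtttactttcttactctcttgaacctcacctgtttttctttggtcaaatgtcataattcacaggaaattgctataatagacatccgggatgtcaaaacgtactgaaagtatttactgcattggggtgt
S100a8: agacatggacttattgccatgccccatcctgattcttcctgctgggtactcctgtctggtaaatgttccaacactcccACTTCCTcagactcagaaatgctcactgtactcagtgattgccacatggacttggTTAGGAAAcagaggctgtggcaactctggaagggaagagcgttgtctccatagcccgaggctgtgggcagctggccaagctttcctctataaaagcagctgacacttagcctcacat
S100a9: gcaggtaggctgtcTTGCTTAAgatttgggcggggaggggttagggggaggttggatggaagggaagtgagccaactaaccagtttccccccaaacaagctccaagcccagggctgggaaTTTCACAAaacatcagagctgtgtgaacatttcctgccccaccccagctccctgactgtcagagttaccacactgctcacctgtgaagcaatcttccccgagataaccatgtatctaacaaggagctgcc
In GRCm38 with GENCODE annotation, the protein-coding genes themselves lie at chr9:7558456-7568485 (Mmp8, 10 exons), chr16:48872621-48874496 (Retnlg, 4 exons), chr3:90668978-90670035 (S100a8, 2 exons) and chr3:90692632-90695721 (S100a9, 3 exons, on the minus strand). The S100a8 window, set by the RefSeq start, reaches past the first base of the GENCODE gene. Of the 9 genes, 8 had a window in the table, and Mmp9 did not. Ly6g had 2 windows, each with both motifs. The members are counted per gene, whereas the shares over all genes are per window. The C/EBP letters stood in the windows of 6 of these 8, Retnlg, Mmp8, Ly6g, S100a8, S100a9 and Trem1, against 36.9% of 32851 windows of all genes. The PU.1 or ETS letters stood in 4 of 8, Mmp8, Ly6g, S100a8 and Trem1, against 7.69% of all windows. Neither was found before Cxcr2 or Csf3r. These matches describe letters in a window and were not tested as binding sites.

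Levels per transcript length spanned a wide range between the 9 genes. S100a9 was the highest in every group, at 13128 ± 3612 rescaled FPKM in Ctrl (SD, n = 3), and S100a8 followed at 1744 ± 525. Next in Ctrl came Cxcr2 at 709 ± 72.1, Retnlg at 682 ± 209 and Csf3r at 620 ± 72.6, whose libraries overlapped. Mmp8 at 216 ± 72.8, Mmp9 at 145 ± 13.2 and Trem1 at 144 ± 25.1 formed a lower group that overlapped too, and Ly6g was the lowest at 16.0 ± 7.69. In CIA the order was the same at its ends, while Csf3r headed the middle group at 731 ± 110 and Mmp8 stood below Mmp9 and Trem1 at 82.9 ± 21.3. There Csf3r overlapped with Retnlg (573 ± 84.0), Retnlg with Cxcr2 (554 ± 58.7), and Mmp9 (141 ± 32.8) with Trem1 (124 ± 20.5). In CIA+THz no neighbours in the order overlapped, with S100a9 at 8550 ± 634, S100a8 at 1041 ± 57.8, Csf3r at 579 ± 36.8, Cxcr2 at 454 ± 29.8, Retnlg at 321 ± 25.7, Mmp9 at 103 ± 3.45, Trem1 at 96.0 ± 2.13, Mmp8 at 76.7 ± 4.57 and Ly6g at 17.0 ± 5.23.

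**Figure D1:**
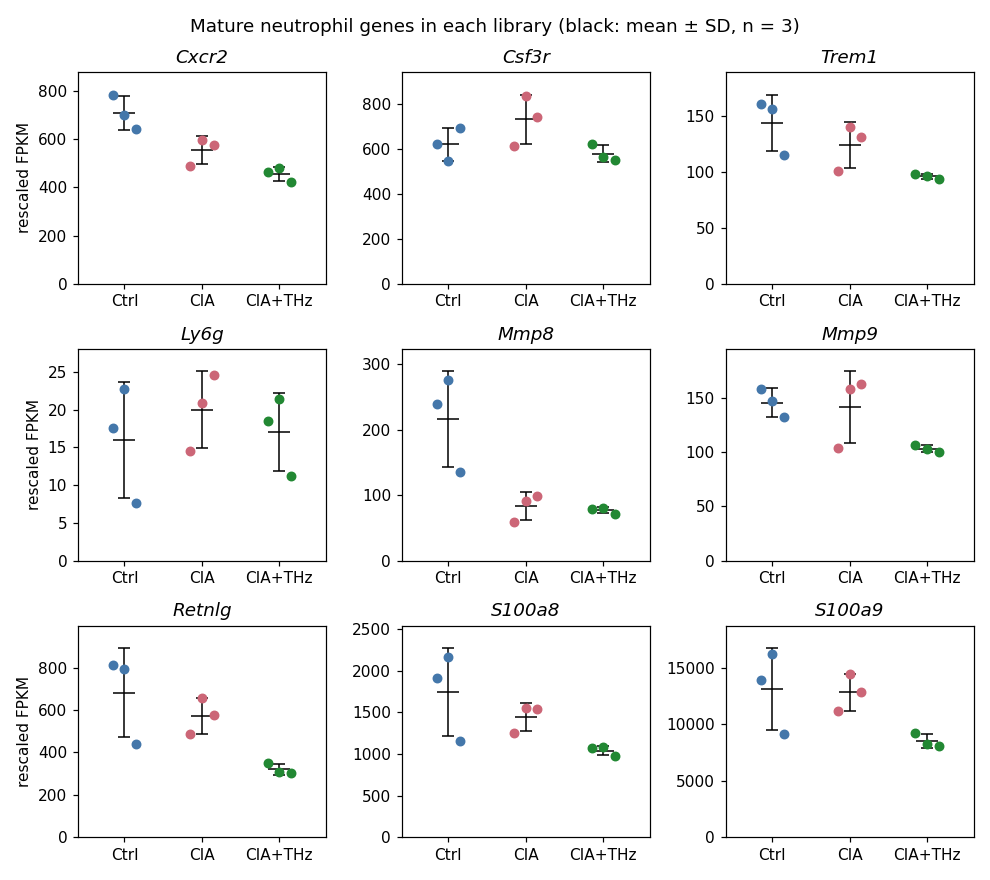
Rescaled FPKM (vertical axis, from 0) of each of the 9 genes in the 3 libraries of Ctrl, CIA and CIA+THz, in the order of replicate number, with mean and SD in black. Mmp8 is high in Ctrl only, Retnlg is lowest in CIA+THz, and Ctrl replicate 3 lies below the other Ctrl libraries for 8 of the 9 genes.

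Differences were tested with limma on log2(rescaled FPKM + 0.1) over 12366 genes. A gene is said below to pass when its unadjusted p was under 0.05 and its log2 fold change exceeded 0.67 in size, the criterion of the study's methods. No member had a Benjamini-Hochberg adjusted p under 0.05 between any pair of groups fitted in this way, where the smallest member value was 0.080. With all 3 groups in a fit, Mmp8 alone did, with an adjusted p of 0.0182 in CIA and 0.0346 in CIA+THz, each against Ctrl. The 3 comparisons share groups with one another, so they are not independent.

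Across the 3 groups together, 6 of the 9 genes passed limma's moderated F test at an unadjusted p of 0.05, where 21.3% of all genes did. Only Mmp8 also passed after adjustment (adjusted p = 0.0251), followed by Retnlg (0.0523) and Cxcr2 (0.0563). Csf3r, Ly6g and S100a9 had an unadjusted p above 0.05.

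CIA and Ctrl mice differed in arthritis and in the immunisation used to induce it. Between these groups Mmp8 was the 1 gene of the 9 that fell past the criterion, where 4.25% of all genes did. Mmp8 encodes neutrophil collagenase, a granule enzyme that cuts fibrillar collagen. Its rescaled FPKM was 238, 275 and 135 in Ctrl, 58.7, 91.5 and 98.6 in CIA, and 78.9, 79.8 and 71.5 in CIA+THz. Every Ctrl library lay above every library with arthritis, and CIA and CIA+THz overlapped. The log2 fold change from Ctrl to CIA was −1.35 (SE 0.31, limma adjusted p = 0.105), a level 2.55-fold lower.

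Of the other 8 genes none passed between CIA and Ctrl, with 5 lower and 3 higher, and the median over all 9 log2 fold changes was −0.21, against −0.0051 over all genes. That median rested on single libraries, at −0.37 without Ctrl replicate 3, −0.059 without Ctrl replicate 1 or 2 and −0.070 without CIA replicate 1. Cxcr2, the receptor for the neutrophil-attracting CXC chemokines, came nearest. It was at 785, 699.9 and 642 in Ctrl, 487, 597 and 578 in CIA and 463, 479 and 421 in CIA+THz. The groups did not overlap, with Ctrl the highest and CIA+THz the lowest, but with FPKM as deposited CIA and CIA+THz overlapped. It differed by −0.36 on the log2 scale in CIA against Ctrl (SE 0.15, limma adjusted p = 0.272). Cxcr2 and Mmp8 were the 2 of 9 genes whose CIA libraries all lay below all Ctrl libraries, where 11.8% of all genes had such a pattern.

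Csf3r, the receptor for G-CSF, had a higher mean in CIA than in Ctrl. Its libraries held 620, 547 and 692 in Ctrl, 615, 835 and 743 in CIA and 620, 565 and 551 in CIA+THz, and all groups overlapped. CIA differed from Ctrl by 0.23 on the log2 scale (SE 0.17, limma adjusted p = 0.508). For S100a9 the same value was 0.0016, with an SE of 0.37 and a 95% interval from −0.87 to 0.88.

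Ly6g, the surface antigen used to sort mouse neutrophils, was low and variable. Its libraries held 17.5, 22.7 and 7.60 in Ctrl, 14.6, 20.8 and 24.6 in CIA and 18.5, 21.4 and 11.2 in CIA+THz. No group stood apart, and the log2 fold changes, 0.43 in CIA against Ctrl and −0.25 in CIA+THz against CIA, had SEs of 0.41 and 0.29. Ly6g has close paralogs in its gene cluster on chromosome 15, and reads may have been divided between them.

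CIA+THz and CIA mice differed in irradiation and perhaps in anaesthesia. Between these groups all 9 log2 fold changes were below 0, 7 of 9 when FPKM was used as deposited and 8 of 9 when libraries were scaled to 10 pan-leukocyte genes. Their median was −0.36, against 0.025 over all genes, and with FPKM as deposited it was −0.079, where the scale of all genes shifts by 0.28. Lower values were not particular to these 9 genes. Monocyte (11 of 12, median −0.35), platelet (8 of 9, −0.41) and pan-leukocyte genes (9 of 10, −0.15) were mostly lower too with rescaling. With FPKM as deposited 7 of 12, 6 of 9 and 2 of 10 of them were lower, with medians of −0.069, −0.13 and 0.12. T cell (9 of 9), NK cell (7 of 7) and B cell markers (7 of 8) were higher. Unadjusted p was under 0.05 for 7 of 9, where 7.33% of all genes were lower at that p, but for 1 of 9 with FPKM as deposited and 2 of 9 with pan-leukocyte scaling. Past the criterion 1 of 9 fell, where 1.60% of all genes did.

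That gene was Retnlg, a resistin-like protein secreted by neutrophils and made in bone marrow. It was at 811, 795 and 441 in Ctrl, 488, 656 and 575 in CIA and 351, 309 and 304 in CIA+THz. Every CIA+THz library lay below every CIA and Ctrl library, while CIA and Ctrl overlapped. The log2 fold change in CIA+THz against CIA was −0.83 (SE 0.13, limma adjusted p = 0.172), a level 1.77-fold lower. With FPKM as deposited it was −0.55 and no longer passed.

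The calprotectin genes lay below their CIA levels too, without passing. S100a8 was at 1910.4, 2167 and 1156 in Ctrl, 1247, 1551 and 1540.0 in CIA and 1069.5, 1079 and 975 in CIA+THz. S100a9 was at 13950.5, 16259 and 9176 in Ctrl, 11212, 14496 and 12848.5 in CIA and 9274, 8279 and 8096 in CIA+THz. For both, all CIA+THz libraries were below all CIA libraries, though not with FPKM as deposited. Ctrl reached above and below CIA, and its lowest library, replicate 3, lay above the CIA+THz libraries for S100a8 and among them for S100a9. From CIA to CIA+THz the log2 fold change was −0.47 for S100a8 (SE 0.13, limma adjusted p = 0.262) and −0.58 for S100a9 (SE 0.23, limma adjusted p = 0.353).

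Trem1, an activating receptor that amplifies inflammatory signals, was at 161, 156 and 115 in Ctrl, 101, 139.8 and 132 in CIA and 97.9, 96.5 and 93.7 in CIA+THz. All CIA+THz libraries lay below all others and close to one another, while with FPKM as deposited they overlapped with CIA. On the log2 scale CIA+THz differed from CIA by −0.36 (SE 0.13, limma adjusted p = 0.333).

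Mmp9 is gelatinase B, which cuts denatured and basement membrane collagen. It was at 158, 147 and 132 in Ctrl, 104, 158 and 162 in CIA and 107, 102 and 99.8 in CIA+THz. CIA replicate 1 lay among the CIA+THz libraries, so these groups overlapped. The log2 fold change was −0.43 (SE 0.18, limma adjusted p = 0.372). It was −0.28 for Cxcr2 (SE 0.12) and −0.33 for Csf3r (SE 0.14), and both came closer to 0 with FPKM as deposited (−0.0036 and −0.050). Mmp8 was at −0.079 (SE 0.20, 95% interval from −0.55 to 0.39). Cxcr2, Trem1, Retnlg, S100a8 and S100a9 were the 5 of 9 genes with all CIA+THz libraries below all CIA libraries, where 10.2% of all genes had that pattern. With FPKM as deposited Retnlg was the 1 gene of the 9 that kept it, and with pan-leukocyte scaling 3 did, Retnlg, S100a8 and S100a9.

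**Figure D2:**
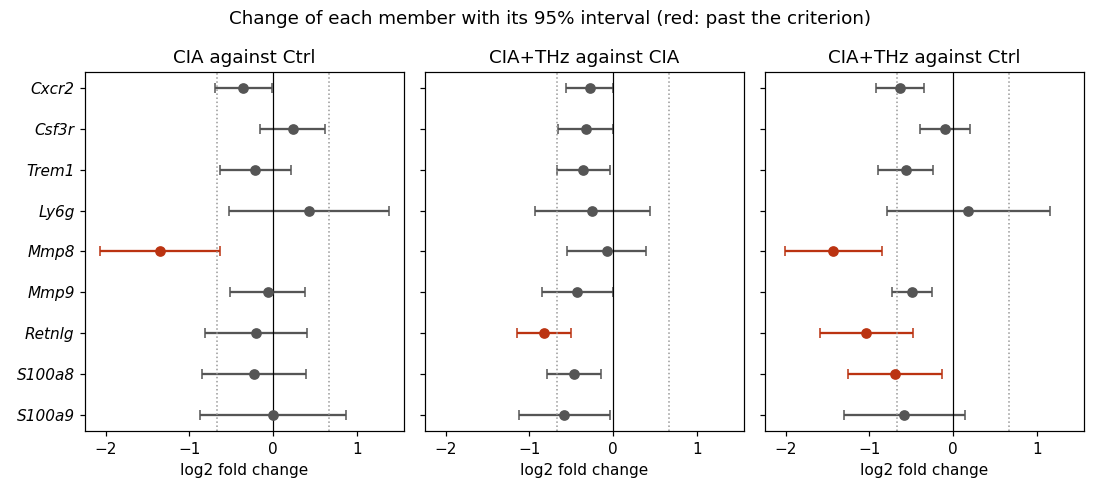
Log2 fold change (horizontal axis) of each gene with its 95% interval in the 3 comparisons, each fitted by limma on its own 6 libraries; dotted lines mark 0.67 in each direction and red marks genes past the criterion. Mmp8 stands apart in CIA against Ctrl and Retnlg in CIA+THz against CIA.

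**Figure D3:**
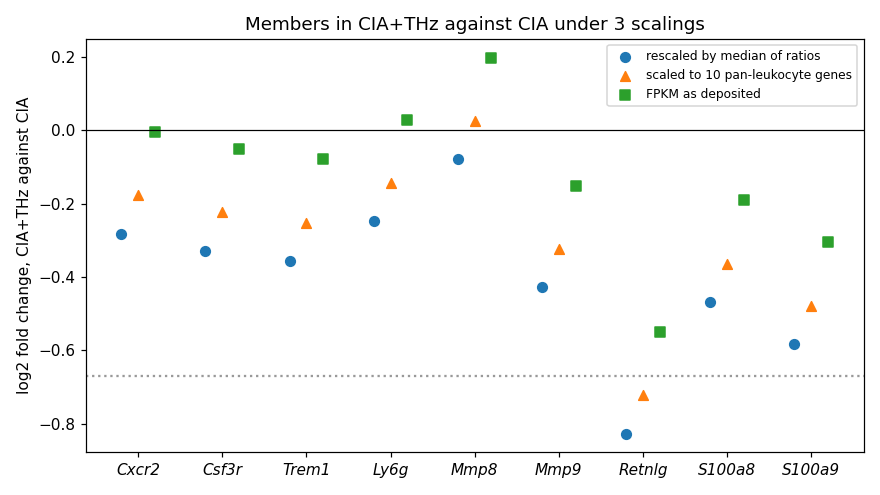
Log2 fold change of each gene in CIA+THz against CIA under the main scaling, scaling to 10 pan-leukocyte genes and FPKM as deposited; the dotted line is at −0.67. Under each, Retnlg is the lowest of the 9 genes and Mmp8 the highest.

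Against Ctrl, CIA+THz held lower levels of 8 of the 9 genes (7 of 9 with FPKM as deposited), with a median log2 fold change of −0.58. Past the criterion were 3 of 9, Mmp8, Retnlg and S100a8, where 3.24% of all genes fell so, and 6 of 9 had all CIA+THz libraries below all Ctrl libraries, where 12% did (4 of 9 with FPKM as deposited). Mmp8 fell by 1.43 on the log2 scale (SE 0.25, adjusted p = 0.080), Retnlg by 1.04 (SE 0.24, adjusted p = 0.122) and S100a8 by 0.70 (SE 0.24, adjusted p = 0.203). For Cxcr2 the value was −0.64 (SE 0.12, limma adjusted p = 0.0973), just short of the fold threshold. The call of S100a8 was lost with FPKM as deposited (−0.39) and on leaving out any 1 library other than Ctrl replicate 3 (−0.51 to −0.72). Ctrl replicate 3 was low for most of these genes, and without it 6 of 9 passed, with Cxcr2 at −0.71, S100a9 at −0.82 and Trem1 at −0.72 beside the former 3. Over all 12366 genes, 1487 then passed in either direction, against 975 with every library. Csf3r (−0.094, SE 0.13) and Ly6g (0.18, SE 0.42) overlapped with Ctrl.

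Ratios of 2 genes within a library do not depend on the scaling. The ratio of Mmp8 to Mmp9, which are collagenase and gelatinase of the same cell, was 1.51, 1.88 and 1.02 in Ctrl, 0.567, 0.579 and 0.607 in CIA and 0.740, 0.779 and 0.716 in CIA+THz. No groups overlapped: CIA was the lowest, CIA+THz lay between, and Ctrl was the highest. The log2 difference was −1.29 (SE 0.26) in CIA against Ctrl and 0.35 (SE 0.046) in CIA+THz against CIA, each with the smallest exact permutation p that 3 against 3 allows (two-sided, p = 0.1, adjusted p = 0.15 over 12 ratio tests).

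Retnlg relative to Cxcr2 was 1.03, 1.14 and 0.688 in Ctrl, 1.00, 1.10 and 0.995 in CIA and 0.757, 0.646 and 0.721 in CIA+THz. The CIA+THz libraries lay below CIA by 0.55 on the log2 scale (SE 0.082, exact permutation p = 0.1, adjusted p = 0.15), and Ctrl spanned the range. The ratio of S100a8 to S100a9 was lower in CIA than in Ctrl by 0.23 on the log2 scale (SE 0.060, exact permutation p = 0.1), whereas CIA+THz overlapped with both.

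**Figure D4:**
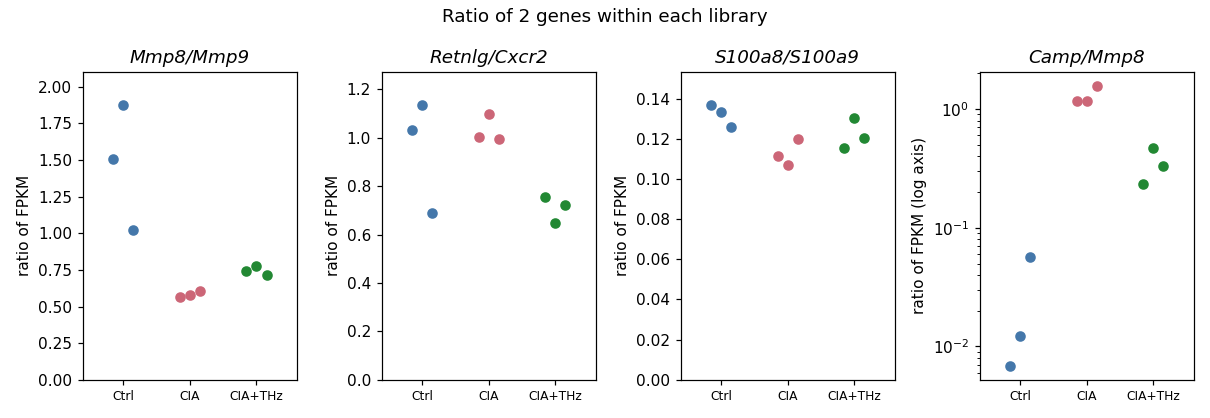
Ratio of the FPKM of 2 genes in each library of Ctrl, CIA and CIA+THz; the Camp to Mmp8 axis is logarithmic and the others start at 0. Mmp8 relative to Mmp9 separates all groups, and Camp relative to Mmp8 separates them by far larger steps.

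The members varied together to different degrees. Over the 9 libraries, with libraries sharing their scaling, Pearson's r with the mean of the other 8 genes was 0.98 for Trem1, 0.97 for S100a8, 0.94 for Retnlg, 0.92 for S100a9, 0.88 for Mmp9, 0.87 for Cxcr2, 0.70 for Mmp8, 0.34 for Ly6g and 0.22 for Csf3r. S100a8 and S100a9, which lie 22.6 kb apart on chromosome 3, had an r of 0.95. Among 9739 genes of at least 1 FPKM, those most like the members' mean pattern were Clec4e (0.99), a C-type lectin, Slc16a3 (0.98), a lactate transporter, Mrgpra2b (0.97), Lcn2 (0.96), Dgat1 (0.96) and Pygl (0.96). These r are descriptions over 9 points.

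Beyond the 9, 27 further genes listed for mature neutrophils were measured. In CIA against Ctrl they divided into 14 higher and 13 lower, with a median of 0.040, and 3 passed: Fpr1, a receptor for bacterial formyl peptides (−0.996), Il1r2, the decoy receptor for IL-1 (−1.01), and Asprv1 (1.15). Of the 12366 genes tested, 1118 passed there. In CIA+THz against CIA all 27 were lower, 18 of 27 with FPKM as deposited, with a median of −0.44, and 6 fell past the criterion, Il1r2, Cd177, Wfdc21, Stfa2l1, Asprv1 and Cd14, by 0.70 to 1.20 on the log2 scale. Of all genes 1.60% fell so. With FPKM as deposited only Cd177 of the 27 passed (−0.68). In CIA+THz against Ctrl 23 of 27 were lower, 15 of 27 with FPKM as deposited. There 6 fell past the criterion, where 3.24% of all genes did (3 with FPKM as deposited, Fpr1, Il1r2 and Padi4). These were Padi4, which citrullinates histones (−1.08, adjusted p = 0.033), Il1r2 (−1.71, adjusted p = 0.033), Fpr1 (−1.20), Fpr2 (−0.74), Clec4d (−0.92) and Cd14 (−0.95).

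The granule genes of immature neutrophils were set beside these, and 3 of 10 rose past the criterion in CIA against Ctrl, where 592 of 12366 genes did. Camp, the precursor of the cathelicidin peptide, was at 1.64, 3.36 and 7.61 in Ctrl, 68.6, 108 and 155 in CIA and 18.5, 37.3 and 23.7 in CIA+THz, a log2 rise of 4.86 in CIA (adjusted p = 0.0361) and a fall of 2.04 in CIA+THz against CIA that passed the criterion without passing adjustment. Ltf, lactoferrin, and Ngp moved with it, by 4.08 and 3.02 in CIA and by −1.93 and −1.86 in CIA+THz against CIA, whereas Lcn2 did not pass in either and fell in CIA+THz against Ctrl (−0.80), though not with FPKM as deposited. The other genes of the list, Mpo, Elane, Prtn3, Ctsg, Ms4a3 and Fcnb, reached at most 1.95 in any library and passed in no comparison. They were thus near the floor, and the list's median in CIA against Ctrl (1.82) fell among them. Within a library, Camp relative to Mmp8 was higher in CIA than in Ctrl by 6.26 on the log2 scale (SE 0.92, exact permutation p = 0.1, the smallest possible).

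**Figure D5:**
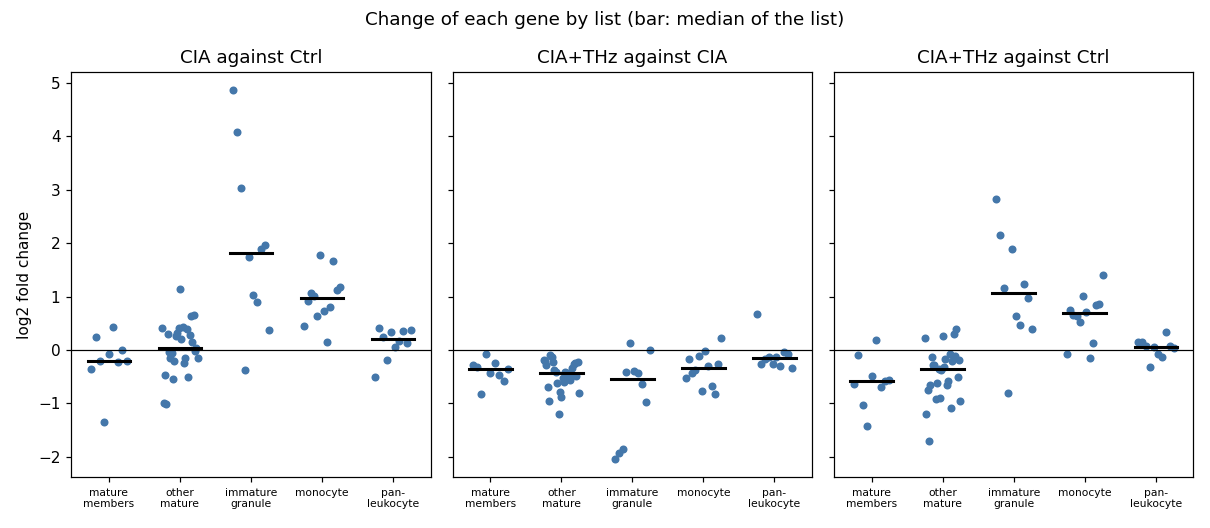
Log2 fold change of each gene (points) by list and comparison, with the list's median as a bar, for the 9 members, 27 other mature neutrophil genes, 10 immature granule genes, 12 monocyte genes and 10 pan-leukocyte genes. In CIA against Ctrl the immature granule and monocyte medians lie above the mature medians, though most of the immature granule genes were near the floor. In CIA+THz against CIA all the medians lie below 0, where with FPKM as deposited the pan-leukocyte median is 0.12.

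The partners of the members were examined by pathway. Of the 9 genes listed as CXCR2 ligands and related receptors, 7 were tested. Ppbp, a platelet chemokine, was between 1815 and 2591 in every library, and Cxcr4, which holds neutrophils in the marrow, between 76.9 and 125, and neither passed in any comparison. The ligand genes Cxcl1, Cxcl2, Cxcl3 and Cxcl5 were under 1 in every library. Cxcl5 fell in CIA against Ctrl (−2.36) from levels of 0.347 to 0.452, and Cxcl12 rose in CIA+THz against CIA (1.66) at levels between 0.251 and 2.76. Of 18 genes of G-CSF signalling, 17 were tested and the cytokine gene Csf3 itself was listed at 0 in all libraries. Cebpe, a factor of late granulocyte development, rose in CIA (2.13) from near 0, together with Cebpa (0.94), and Gfi1, a repressor needed for neutrophil development, rose in CIA+THz against CIA (1.82) at levels of 0 to 1.05. Cebpb passed in CIA+THz against Ctrl (−3.18, SE 1.25) but not with FPKM as deposited, and its libraries ran from 1.52 to 61.6 within CIA+THz and from 4.56 to 106 within CIA, so that value rests on libraries of a group that disagree.

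Of 11 genes of TREM1 signalling, Tyrobp, the adaptor that carries the Trem1 signal, was at 251, 213 and 216 in Ctrl, 336, 348 and 333 in CIA and 223, 196 and 220.1 in CIA+THz. Its CIA libraries were all above the rest, and the fall in CIA+THz against CIA was 0.67 (limma adjusted p = 0.172). Card9, a downstream adaptor, fell with it (−0.69). Malt1, of the same list, moved the other way, from 12.5, 11.1 and 11.9 in CIA to 18.5, 17.4 and 18.9 in CIA+THz. Malt1 did not pass there with rescaling but did with FPKM as deposited (0.90). Between these groups 8 of the 11 genes were lower and 3 higher, and with FPKM as deposited 6 and 5. Trem2 rose in CIA (2.58) and in CIA+THz (1.93) against Ctrl. Of 12 genes listed as calprotectin receptors and the S100 family, S100a4 rose in CIA (1.34, adjusted p = 0.0361), and S100a1 (−0.78), S100a6 (−0.71) and Cd14 (−0.81) fell in CIA+THz against CIA. Against Ctrl, CIA+THz held more S100a4 (0.69) and less Cd14 (−0.95) and Tlr4, a receptor for calprotectin (−0.82). In CIA+THz against CIA the medians of the TREM1 and calprotectin lists, −0.30 and −0.29, became −0.023 and −0.024 with FPKM as deposited, and none of these falls passed then, nor did those of Cd14 and Tlr4 against Ctrl.

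Among 11 tested metalloproteinases and inhibitors, 10 were lower in CIA than in Ctrl, and Adam8, a neutrophil surface sheddase, fell past the criterion (−0.71, and −0.92 in CIA+THz against Ctrl, where it did not pass with FPKM as deposited). Many of the 10 were near the floor: Mmp2, Mmp13, Mmp14, Timp1, Timp3 and Reck had means of 0 to 1.67 in Ctrl and CIA. Mmp19 was the one that was higher, with means of 34.4 in Ctrl and 37.7 in CIA. The inhibitor Timp2 was between 23.7 and 38.9 and did not pass. In the resistin family Retn fell in CIA+THz against Ctrl (−1.53), with levels of 2.61 to 4.29 in Ctrl and 0.435 to 1.90 in CIA+THz, and of 8 Ly6 genes Ly6i (2.50) and Ly6d (0.74) rose in CIA. In CIA+THz against Ctrl the same genes rose (2.06 and 0.70), and Lynx1 did too (0.85).

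Other blood cells moved beside these genes. All 12 monocyte markers were higher in CIA than in Ctrl, 8 of them past the criterion, where 592 of the 12366 genes rose so. The summed level of the monocyte markers was between 3293 and 3632 in Ctrl, 5662 and 6316 in CIA and 3887 and 4166 in CIA+THz. T cell markers (9 of 9) and NK cell markers (7 of 7) were all lower in CIA than in Ctrl, and in CIA+THz all of them were above CIA again. Summed T cell markers ranged from 298 to 328 in Ctrl, 236 to 260.2 in CIA and 303 to 405 in CIA+THz, and summed NK cell markers from 142 to 184, 50.2 to 114 and 92.9 to 147. The summed erythroid level was 69250.2 to 103883 in Ctrl, 87321 to 98024 in CIA and 47553 to 65593 in CIA+THz, with 6 of 8 erythroid markers lower in CIA+THz than in CIA but 1 of 8 with FPKM as deposited, and 8 of 9 platelet markers lay below CIA in CIA+THz, 6 of 9 with FPKM as deposited. Summed over the 9 members the level was 12497 to 21068 in Ctrl, 14326 to 18545 in CIA and 10622 to 12080 in CIA+THz. Such sums mostly follow their highest gene. In Ctrl, CIA and CIA+THz, Alas2 averaged 85630, 91159 and 55983 and was nearly all of the erythroid sum. Lyz2 averaged 2717, 4715 and 2963 and was most of the monocyte sum. S100a9 averaged 13128, 12852 and 8550 and was most of the member sum. No marker listed for these cells was at 0 in all libraries. The part of these other cells in the values of the 9 genes was not tested.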

How the data were processed

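Blood RNA of 9 libraries (3 groups of 3) had been sequenced as 150-base read pairs on an Illumina HiSeq after TruSeq RNA V2 preparation. The authors deposited gene FPKM values, 1 row per symbol. The submitters' processing notes name bcl2fastq 2.0, HISAT2, StringTie, DESeq2 and mm10, without saying which step each served. The annotation, strand setting and filters are not given in the sources used here. FPKM hold no counts, so no count test was run.

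Each library's FPKM were rescaled by its median of ratios to the geometric mean, over 10312 genes above 0 in all libraries. Genes with a mean of at least 0.1 were kept (12366). Each pair of groups was fitted on log2(rescaled FPKM + 0.1) with limma 3.58.1 (R 4.3.3, trended moderation), which was also tested on simulated data; fold changes on that scale understate those of low genes. P-values were adjusted by the Benjamini-Hochberg method over all genes tested. Ratios were compared by exact two-sided permutation tests. Named genes were the 9 members. Also named was every pathway or neutrophil list gene that passed in the comparison described (otherwise the 3 of highest mean FPKM). Camp, Ltf, Ngp, Lcn2, Malt1 (which passed with FPKM as deposited) and the 6 other genes with the highest r to the members' mean were added. The members and lists were chosen with earlier results of these data known. Positions came from GENCODE M21, and sequences from RefSeq.

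Alternatives were FPKM as deposited, scaling to 10 pan-leukocyte genes, a pseudocount of 1, a filter of 1, no filter, no trend, all 3 groups in a fit, a replicate block, adjusted p-values, and leaving out each library in turn.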

Additional observations from a re-analysis of the deposited data

How the results depend on the processing

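Of 351 log2 fold changes of the members under the alternatives, 323 kept their direction and side of the criterion, 15 reversed, 7 lost the criterion and 6 gained it. With adjusted p-values under 0.05 no member passed in any pair (0, 0 and 0) as fitted, and 1 did across the 3 groups. Under other settings Mmp8 did, with an adjusted p of 0.0182 in CIA against Ctrl (all 3 groups in a fit), and of 0.0346 (all 3 groups), 0.0377 (filter of 1) and 0.0248 (without Ctrl replicate 3) in CIA+THz against Ctrl. With FPKM as deposited 0 members passed in CIA+THz against CIA (median −0.079) and 2 across the groups, and the median in CIA+THz against Ctrl was −0.27. Leaving out each library in turn gave 1 member past the criterion in every fit of CIA against Ctrl, 1 to 2 in CIA+THz against CIA (2 without CIA replicate 1, where S100a9 joined at −0.68), 2 to 6 in CIA+THz against Ctrl (6 without Ctrl replicate 3) and 4 to 7 across the groups. Cxcr2 also passed against Ctrl with pan-leukocyte scaling (−0.67) and without CIA+THz replicate 2 (−0.68).

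Values that reversed were small or variable. With FPKM as deposited these were Mmp8 (0.20) and Ly6g (0.028) in CIA+THz against CIA and Csf3r (0.21) in CIA+THz against Ctrl, and with pan-leukocyte scaling Mmp8 (0.026) in CIA+THz against CIA and S100a9 (−0.14) in CIA against Ctrl. On leaving out each library in turn, values of CIA against Ctrl ran from −0.24 to 0.18 for S100a9 (below 0 without Ctrl 3, CIA 2 or CIA 3), from −0.18 to 0.14 for Mmp9 (above 0 without CIA 1) and from −0.029 to 0.76 for Ly6g (below 0 without Ctrl 3). Those of CIA+THz against CIA ran from −0.31 to 0.064 for Mmp8 (above 0 without CIA 2 or CIA 3) and from −0.46 to 0.025 for Ly6g (above 0 without CIA+THz 3), and those of CIA+THz against Ctrl from −0.28 to 0.51 for Ly6g (below 0 without Ctrl 3 or CIA+THz 2). The cause was not tested.

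Over all genes, 1118, 561 and 975 passed in CIA against Ctrl, CIA+THz against CIA and CIA+THz against Ctrl. With FPKM as deposited the last 2 became 1199, of which 1133 were higher against 363 with rescaling, and 1720, of which 1600 were higher against 574. A pseudocount of 1 gave 283 in CIA+THz against CIA, and leaving out Ctrl replicate 3 gave 1487 in CIA+THz against Ctrl. By adjusted p 19, 0 and 13 passed, where 2140, 1634 and 2236 had an unadjusted p under 0.05, and across the groups 313 passed in place of 2629.

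The replicate numbers did not pair the libraries, with same-number correlations from −0.052 to 0.031, and with a replicate block 1, 1 and 3 members passed, as without it.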
